A study of Mus musculus with 36 samples.

Results

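The regions described here are those in which wild-type Pax5 (Pax5 Wt) gave a reproducible ChIP-seq peak and neither of its K198 mutants did. Pax5 was immunoprecipitated from Pax5-/- pro-B cells that carried Pax5 Wt, K198Q or K198R, with 2 replicates per form and 1 deposited peak list per replicate. A peak was kept if it overlapped a peak of the other replicate of its form by at least 1 bp, and kept peaks that overlapped were merged within and then across forms. Of the resulting 10760 regions, 1596 (14.8%) overlapped a kept peak of Pax5 Wt and none of K198Q or K198R, and they made up 20.7% of the 7720 regions with a kept Wt peak. The other regions with Wt were 3807 shared with K198R, 2281 bound by all 3 forms and 36 shared with K198Q, while 2975 regions had kept peaks of K198R only. The regions were thus chosen by the presence and absence of peaks, values of the same lists that are described below. Their number depended on the lists used. With 1 list left out and the other list of its form used whole, it ran from 852 to 4322. The word "only" refers to kept peaks. A peak in a single K198R list was present in most Wt-only regions, as given below, so their label as regions that only the wild-type protein binds did not hold for every deposited peak.

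The Pax5-/- cells were of C57BL/6 origin. They came from fetal liver according to the methods, whereas the labels name bone marrow. They were transduced with retroviruses that carried no insert (empty vector, EV), Pax5 Wt, K198Q or K198R, and were grown on OP9 stromal cells with IL-7, SCF and FLT3-L. K198Q places glutamine, which resembles acetylated lysine, in place of the lysine that the study follows, and K198R places arginine, which cannot be acetylated. All 4 groups lacked both endogenous Pax5 alleles, so every form was read at retroviral rather than native expression. RNA-seq of the same 4 groups (2 libraries each) and of a further culture gave the readout at genes. That culture held bone marrow pro-B cells of the 129Sv strain, Sirt7-/- with EV, Pax5 Wt or K198R and wild type with EV (2 libraries each), and endogenous Pax5 was intact in all of them. The study's methods state that replicates were made on different days.

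Pax5 is the paired-domain transcription factor that commits progenitors to the B lineage. It activates genes of B cell receptor signalling and represses genes of other lineages, and without it pro-B cells stay uncommitted. Its paired domain reads a long, loosely defined DNA site through separate subdomains, so that single sites differ in many bases.

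Several features of the libraries bear on what follows. The Wt lists held 10646 and 11830 peaks and the K198R lists 12158 and 13997, but the K198Q lists held only 3750 and 3957, so that absence from K198Q was the common state of a Wt peak. In the file of K198R replicate 2 the names of the peaks bear a different replicate number; its label was followed. In the RNA-seq libraries of these cells Pax5 itself had 2201 and 2103 normalized counts with EV, 6458 and 6152 with Wt, 8918 and 8963 with K198Q and 21162 and 16609 with K198R. Pax5 RNA was thus highest with K198R, and transcripts of the virus and of the disrupted gene cannot be told apart in these counts. Markers of pro-B cells summed to between 35380 and 84109 normalized counts per Pax5-/- library (8 genes, Igll1 the most abundant). Those of OP9 stroma summed to between 1098 and 2651 (7 genes, Cxcl12 the most abundant) and those of T cells to between 1981 and 3197 (6 genes, Lck the most abundant, with Cd3d and Cd3e below 10 in all libraries). Markers of NK cells (4 genes, Klrd1 the most abundant, Ncr1 below 10 in all libraries) summed to 1217 and 1087 with EV, 465 and 381 with Wt, 761 and 638 with K198Q and 310 and 160 with K198R. Those of myeloid cells (4 genes, Itgam the most abundant) summed to 1011 and 729, 483 and 465, 745 and 714, and 655 and 408 in the same order. Both sums were lower with Wt and K198R than with EV, while pro-B markers were higher. Erythroid markers summed to at most 85.9. In the Sirt7-/- table pro-B markers summed to between 96767 and 126362, OP9 markers to between 3212 and 11517, T cell markers (3 genes, Thy1 the most abundant) to between 379 and 3131, myeloid markers to between 676 and 1272 and NK markers to between 8.34 and 381. The part of these cells in the results was not tested.

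Windows around the summits of 6 Wt-only regions show what such regions look like (mm10, forward strand, genome sequence of GRCm38.p6). Capitals mark a match to the Pax5 core GCNTGAC or to a weight matrix of the Pax5 site on either strand, both described below. The Pex2, Sox5 and distal Fundc1 windows were chosen because they hold strong matrix matches, Erg because it is a B lineage gene, and the Gsdme and Cd79b promoters because they hold none and are shown without transcribed leader bases.
Pex2 intron, chr3:5572626-5572826: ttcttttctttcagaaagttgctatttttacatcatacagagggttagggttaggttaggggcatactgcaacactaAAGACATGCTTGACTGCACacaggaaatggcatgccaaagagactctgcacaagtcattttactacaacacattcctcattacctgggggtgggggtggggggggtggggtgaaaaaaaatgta
Sox5 upstream, chr6:144817448-144817648: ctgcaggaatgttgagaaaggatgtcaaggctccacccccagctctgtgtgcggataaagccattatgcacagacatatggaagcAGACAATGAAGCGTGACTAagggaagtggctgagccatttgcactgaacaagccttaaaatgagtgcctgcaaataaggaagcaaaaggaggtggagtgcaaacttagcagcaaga
Fundc1 upstream, chrX:17691144-17691344: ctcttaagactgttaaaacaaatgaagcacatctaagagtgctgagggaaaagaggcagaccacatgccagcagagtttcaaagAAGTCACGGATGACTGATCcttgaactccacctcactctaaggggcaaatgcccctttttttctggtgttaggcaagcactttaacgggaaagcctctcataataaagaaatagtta
Erg intron, chr16:95434431-95434631: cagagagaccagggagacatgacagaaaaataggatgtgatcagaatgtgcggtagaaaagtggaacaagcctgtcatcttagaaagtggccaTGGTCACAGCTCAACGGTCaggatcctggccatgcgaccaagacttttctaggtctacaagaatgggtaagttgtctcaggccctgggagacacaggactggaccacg
Gsdme promoter, chr6:50261605-50261733: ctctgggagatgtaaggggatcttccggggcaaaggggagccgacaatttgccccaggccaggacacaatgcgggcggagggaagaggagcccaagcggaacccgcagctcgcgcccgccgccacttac
Cd79b promoter, chr11:106314530-106314664: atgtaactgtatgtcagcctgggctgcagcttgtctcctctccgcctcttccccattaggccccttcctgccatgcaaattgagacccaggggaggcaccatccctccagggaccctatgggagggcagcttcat

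Wt-only regions were low and narrow peaks. Their median fold enrichment over input was 5.19 in Wt replicate 1 and 5.31 in replicate 2, against 5.87 and 6.12 in regions shared with K198R and 9.83 and 10.1 in regions of all 3 forms. Their median length was 343 bp (quartiles 294 and 413), against 486 bp in regions shared with K198R and 625 bp in regions of all 3 forms. Regions of K198R alone were as low and narrow, with medians of 350 bp and of 5.28 and 5.44 in the K198R lists, so this form is not particular to Wt-only regions. These values describe the peaks that the choice of regions used, and no test was made on them. The median of the lower of the Wt fold enrichments was 4.62, and 26 regions reached 8 and 6 reached 10 in both replicates. In both Wt lists 1420 regions had a −log10 q of at least 3, 976 of at least 5 and 152 of at least 10. The heights of the 2 Wt replicates lay within 2-fold of each other in 1536 of 1596 regions, but within this narrow range the replicates ordered the regions weakly (r of log2 fold enrichment 0.271 across regions, which share both libraries and are not independent). Summits of the 2 replicates lay a median of 44 bp apart, against 39 bp in regions shared with K198R and 24 bp in regions of all 3 forms.

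The share of Wt regions that were Wt-only fell with height. It was 34.2% (428 of 1250) where the lower Wt fold enrichment was at most 4, 31.9% (571 of 1792) between 4 and 5, 24.9% (386 of 1549) between 5 and 6, and 14.0% (135 of 967) between 6 and 7. Above that it dropped to 8.40% (50 of 595) between 7 and 8, 2.82% (20 of 708) between 8 and 10 and 0.984% (6 of 610) between 10 and 15. None of the 249 tallest regions was Wt-only, which allows a share of up to 1.52% (95% Wilson interval, counting error only). A tall Wt peak with no reproducible counterpart in K198R or K198Q was therefore rare in these lists.

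**Figure D1:**
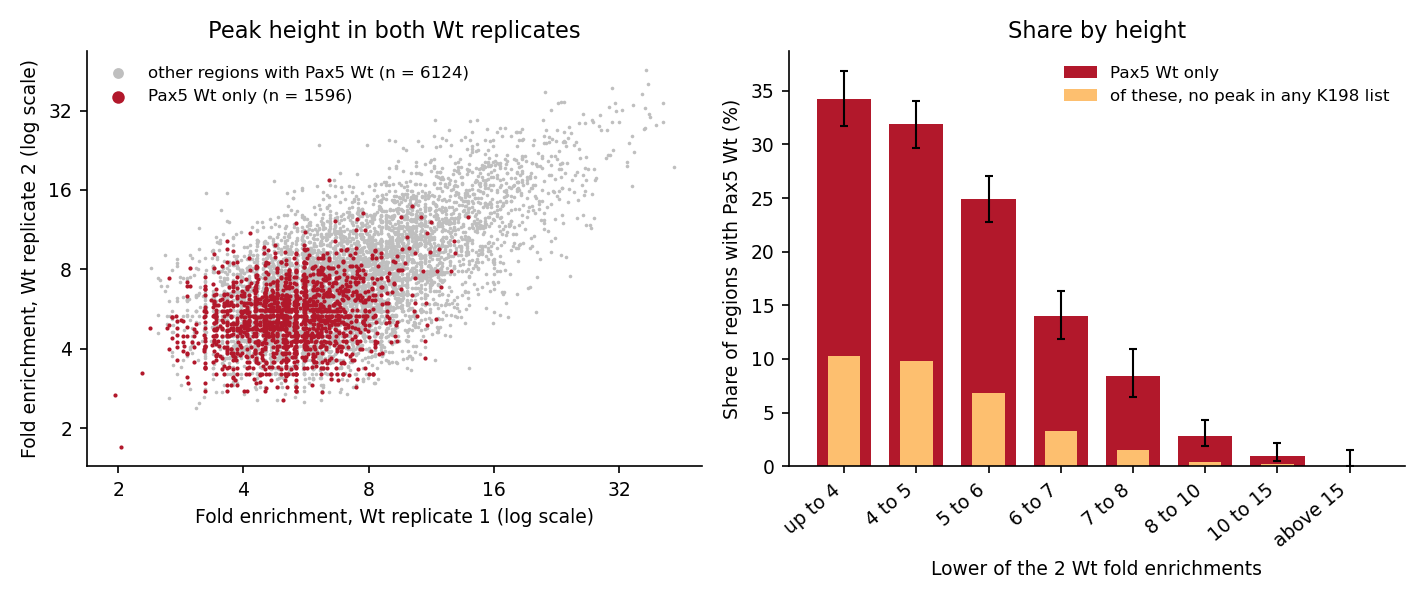
Left, fold enrichment over input in Wt replicate 1 and Wt replicate 2 (log axes) for each region with a kept Wt peak, Wt-only regions in red and the others in grey. Right, percentage of Wt regions that were Wt-only in each bin of the lower Wt fold enrichment (red bars, 95% Wilson intervals) and the part of these with no peak in any of the 4 K198 lists (orange), falling from 34.2% and 10.3% in the lowest bin to 0 in the highest.

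Most Wt-only regions held a K198R peak that the other K198R replicate did not repeat. K198R replicate 1 had a peak in 369 regions (23.1%) and replicate 2 in 752 (47.1%), and in 12 regions both had peaks that did not overlap each other. Together 1109 regions (69.5%, 95% Wilson interval 67.2 to 71.7) had a K198R peak in at least 1 list. A K198Q peak was present in 230 regions (14.4%), 108 in replicate 1 and 122 in replicate 2. No peak in any of the 4 lists was found in 454 regions (28.4%, 26.3 to 30.7). Where a K198R peak was present its median fold enrichment was 5.36, and it was above both Wt values in 369 regions and below both in 360 of the 1109. Its summit lay a median of 42 bp from the Wt summit, and 57.4% of 1121 such summits lay within 50 bp. The mirror class also held such peaks, at a lower share: of 2975 K198R-only regions, 1815 (61.0%, 59.2 to 62.7) held a Wt peak in at least 1 list.

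A Wt peak was found again in a K198R list about as often as in the other Wt list. Of all peaks of Wt replicate 1, 74.3% overlapped a peak of Wt replicate 2, 71.9% one of K198R replicate 1 and 78.1% one of K198R replicate 2. Of all peaks of Wt replicate 2, 66.8% overlapped a peak of Wt replicate 1, 69.9% one of K198R replicate 1 and 75.5% one of K198R replicate 2. Recurrence in the K198Q lists was lower, between 29.2% and 33.6%. At heights between 4 and 5 in Wt replicate 1 the shares were 58.5% in Wt replicate 2, 57.4% and 63.1% in K198R and 12.4% and 13.5% in K198Q. Between 5 and 6, where the median of Wt-only regions in that replicate lay, they were 65.8%, 62.8% and 71.6%, and 18.2% and 18.7% in the same order. Above 15 they were 100% in Wt and K198R and 97.4% and 98.6% in K198Q. How many Wt-only regions would remain with more replicates was not tested.

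**Figure D2:**
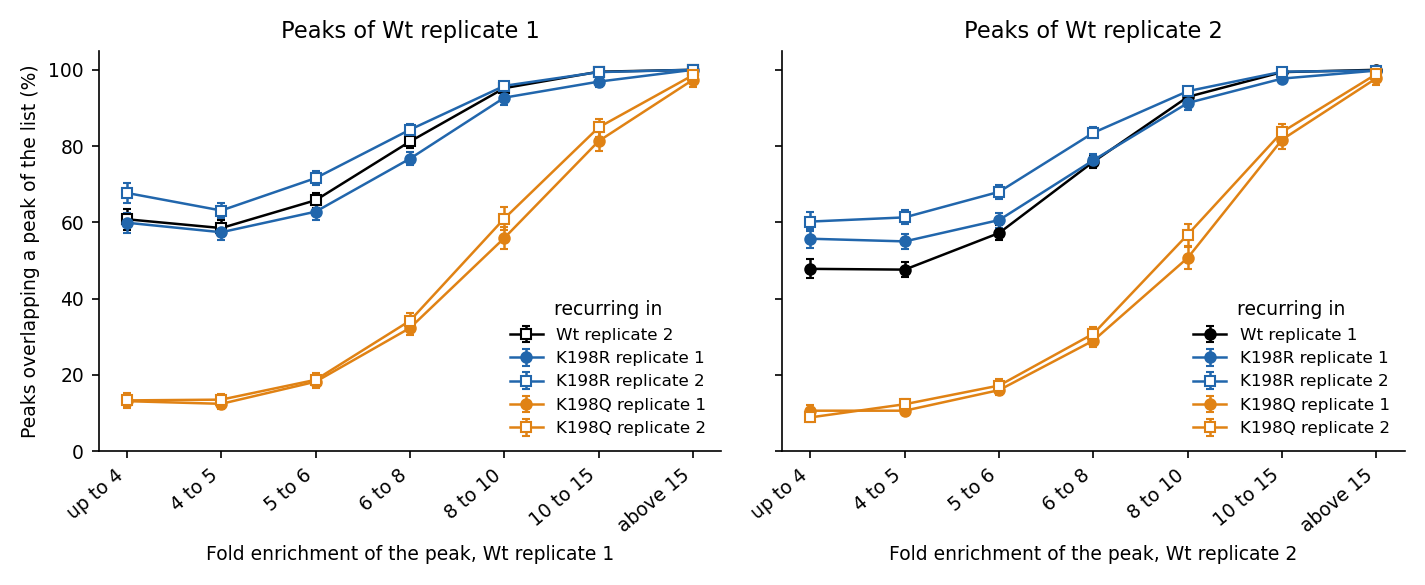
Percentage of peaks of Wt replicate 1 (left) and Wt replicate 2 (right) that overlap a peak of each other list by at least 1 bp, by fold enrichment of the peak. Points are percentages and bars 95% Wilson intervals; at 4 to 5 in Wt replicate 1 the lines for Wt (58.5%) and K198R (57.4% and 63.1%) lie together and those for K198Q (12.4% and 13.5%) far below.

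The tallest Wt-only regions carried the same mixture. At the promoter of Cisd3, which encodes a mitochondrial iron-sulfur protein (chr11:97685578-97685987), fold enrichment was 13.8 and 12.7 in the Wt replicates, and K198R replicate 2 had a peak of 9.20 and K198Q replicate 1 one of 6.24. The promoter of Gsdme, which encodes the pore-forming protein gasdermin E (chr6:50261530-50261888), had 11.3 and 12.1 and no peak in any K198 list. An intron of Kdm2b, a histone demethylase gene (chr5:122986083-122986469), had 10.7 and 12.6, with 10.1 in K198R replicate 2 and 5.91 in K198Q replicate 2. Of the 10 regions with the highest lower Wt value, Gsdme was the only one without a K198 peak, and 8 had a peak in K198R replicate 2. The Pex2 intron shown above had 11.8 and 9.55, with 10.6 in K198R replicate 2 and 9.65 in K198Q replicate 2, close to the Wt level. Pex2 encodes a peroxisome assembly factor. The region upstream of Sox5, an HMG-box transcription factor gene, had 9.89 and 10.6, with 6.15 in K198R replicate 2 and 6.73 in K198Q replicate 2. An intron of Cmklr1, the chemerin receptor gene (chr5:113634382-113634884), had 12.8 and 10.3, with 6.54 in K198R replicate 2 and 5.36 in K198Q replicate 1. The remaining 4 of the 10 lay in introns of Coro2b and Gm48383, at the promoter of St6galnac3 and near 4933402C06Rik, with Wt values between 9.58 and 13.9.

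Fundc1 and Nus1, which the study names as examples of sites lost by K198R, had Wt-only regions. Fundc1 encodes a mitophagy receptor. Its promoter (chrX:17571619-17572157) had 9.25 and 8.52 and no K198 peak, and another region at position -118919 bp from its start (chrX:17691100-17691394) had 6.05 and 6.74 and also none. Nus1 encodes a subunit of the enzyme that makes dolichol. Its promoter (chr10:52417793-52418097) had the low values of 3.59 and 3.21, and K198R replicate 2 had a peak of 6.11, above both. The study itself reports mild binding of K198R at Nus1.

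Whether a region counted as Wt-only could rest on a few base pairs. The Wt-only region nearest to a kept K198R peak lay 17 bp from it, near Arl5c (chr11:97999791-98000246, 4.49 and 4.70), and the next 24 bp away at the promoter of Hira, a histone chaperone gene (chr16:18876852-18877353, 3.05 and 4.46). Just outside the class, a region at the promoter of Rtn4r (chr16:18127212-18127789) shared 6 bp with a kept K198R peak (Wt 4.02 and 4.82, K198R 4.51 and 3.30), and one at Trim26 (chr17:36836841-36837552) shared 34 bp (Wt 4.48 and 4.0, K198R 3.83 and 5.85). Such cases were few. The median distance to the nearest kept K198R peak was 35452 bp over the 1595 regions with one on their chromosome, and 82 regions lay within 500 bp and 431 within 10 kb.

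Wt-only regions lay at promoters less often than other Pax5 regions. Their Wt summit was within 1 kb of a transcription start in 664 regions (41.6%, 95% Wilson interval 39.2 to 44.0), against 56.5% (54.9 to 58.1) of regions shared with K198R, 55.3% of regions of all 3 forms and 50.0% of K198R-only regions. Introns held 482 (30.2%), intergenic sequence 386 (24.2%) and exons 64 (4.01%). The 454 regions with no K198 peak in any list were at promoters in 34.1% (29.9 to 38.6) and the 1109 with a K198R peak in 44.5% (41.6 to 47.5). The 932 regions outside promoters lay a median of 11803 bp from the nearest start, against 10791 bp for regions shared with K198R. By chromosome, the share of Wt regions that were Wt-only ranged from 14.1% on chromosome 10 to 26.2% (16 of 61) on X. The summit lay in a repeat in 7.27%, against 5.91% of regions shared with K198R. These are descriptions with counting intervals, since regions of the same libraries are not replicates.

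Matches to the Pax5 site were more frequent in Wt-only regions than in flanking windows, although most of the regions held none. Sequence was not used to choose the regions. The core GCNTGAC, on either strand within 100 bp of the summit, was present in 216 regions (13.5%, 95% Wilson interval 11.9 to 15.3), against 5.56% of windows of equal length 2 kb to each side. The share was 15.3% in regions shared with K198R, 21.4% in regions of all 3 forms and 12.8% in K198R-only regions. A weight matrix of 19 positions, learned from the regions of all 3 forms and set so that about 5% of the flanking windows pass (5.02%), matched 465 Wt-only regions (29.1%, 27.0 to 31.4). It matched 22.7% (21.4 to 24.1) of regions shared with K198R, 18.9% of K198R-only regions and 39.4% of the regions it was learned from. In windows of the same length at all 32851 RefSeq promoters (GRCm38.p6), ending 50 bases after the start, the core was present in 7.75% and the matrix in 4.40%, against 10.7% and 14.0% at the 664 Wt-only promoters.

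Part of this difference between classes went with place. Outside promoters the matrix matched 39.9% (36.8 to 43.1) of Wt-only regions and 36.3% (34.0 to 38.6) of regions shared with K198R, and at promoters 14.0% (11.6 to 16.9) and 12.4% (11 to 13.8), so that the intervals overlapped within each kind of place. At matched height, with a lower Wt fold enrichment between 5 and 8 and outside promoters, the shares were 45.4% (40.4 to 50.5) in Wt-only regions, 37.5% (34.2 to 40.9) in regions shared with K198R and 45.3% in regions of all 3 forms. Matches were more frequent in taller Wt-only regions, with 24.3% where the lower Wt fold enrichment was at most 5, 36.6% between 5 and 8 and 50.0% (13 of 26) above 8. The 454 regions without any K198 peak had 30.4% and the others 28.6%. Matches lay near the summit. Their centre was within 25 bp of it in 217 of 465 Wt-only regions (46.7%, 42.2 to 51.2), against 28.1% of matches in the flanking windows and 55.8% in regions of all 3 forms.

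**Figure D3:**
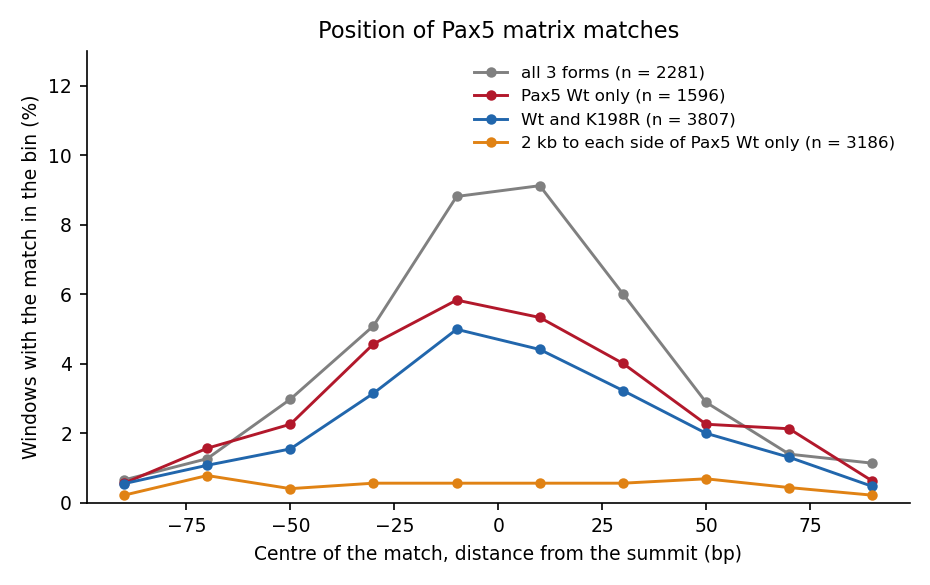
Percentage of windows whose best matrix match is centred in each 20 bp bin, by distance from the peak summit in bp, for Wt-only regions, regions shared with K198R, regions of all 3 forms and windows 2 kb to each side of the Wt-only summits. The lines for the 3 region classes peak at the summit and the flanking windows stay below 1% in every bin.

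The matched sites themselves differed widely, and 6 of them are shown in the direction of the matrix to make that visible. Capitals mark bases equal to the most frequent base of the matrix at that position.
Pex2 intron, chr3:5572703-5572721: GtGCAGTCAAGCaTGtCtt
Fundc1 upstream, chrX:17691228-17691246: GatCAGTCAtcCGTGACtt
Cmklr1 intron, chr5:113634633-113634651: GctCAGcCAAGCaTGtCCt
Sox5 upstream, chr6:144817533-144817551: aGaCAaTgAAGCGTGACta
Rag1 exon, chr2:101644064-101644082: GctCAacCAcGCGaGACgG
Erg intron, chr16:95434524-95434542: GacCgtTgAgctGTGACCa
The Pex2 site equalled the top base at 14 of 19 positions, those of Fundc1, Cmklr1 and Sox5 at 13, that of Rag1 at 12 and that of Erg at 10. Their matrix scores were 17.9, 19.1, 16.5, 14.0, 10.3 and 12.4 in the order shown, against a threshold of 9.55. Height and match did not always go together, since the Gsdme promoter, taller than the Sox5 region, held no match. A match is a description of the letters and was not tested as a site of binding.

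Motifs of other B lineage factors were counted in the same windows. ETS factors (GGAAGT), which include PU.1 and Erg, had a match in 23.4% of Wt-only regions against 11.7% of flanking windows, E2A (CAGCTG) in 17.2% against 9.64%, EBF (TCCCNNGGG) in 10.0% against 3.17% and RUNX (TGTGGT) in 21.2% against 15%. IRF (GAAANNGAA) went the other way, with a match in 4.70% (3.77 to 5.85) against 6.34% (5.55 to 7.24). Each was sought on both strands, and ETS matches can overlap others. In regions shared with K198R the shares were 23.4% for ETS, 18.2% for E2A, 11.1% for EBF, 16.4% for RUNX and 4.20% for IRF. By place, the RUNX share of Wt-only regions was 29.4% (26.6 to 32.4) against 27.7% (25.6 to 29.9) outside promoters and 9.79% (7.75 to 12.3) against 7.81% (6.75 to 9.02) at promoters, higher in both but with overlapping intervals. E2A was less frequent in Wt-only regions than in regions shared with K198R outside promoters, with 19.5% (17.1 to 22.2) against 25.0% (23.0 to 27.2), whereas at promoters the intervals overlapped at 14.0% (11.6 to 16.9) and 13% (11.6 to 14.5). The GC box (GGGCGG) was in 58.1% of Wt-only promoters and 9.01% of the rest. Mean GC content was 57.3% (SD 10.3, n = 1596 windows) in Wt-only regions and 60.9% in regions shared with K198R, and flanking windows had 46.0%. The shares among all RefSeq promoters were 18% for ETS, 4.38% for EBF, 11.3% for RUNX and 32.2% for the GC box. Wt-only promoters had 20.6% (17.7 to 23.9), 7.08% (5.36 to 9.29), 9.79% (7.75 to 12.3) and 58.1% in the same order. The intervals for ETS and RUNX included the share of all promoters.

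Genes of the B lineage lay near 11 Wt-only regions. Of a list of 50 such genes, 9 had a region within the gene or 10 kb of its start, whereas 1516 of all 21992 protein-coding genes (6.89%) had one. Gene length was not taken into account, and no test was made. Cd79b encodes the Ig-beta signalling chain of the B cell receptor, and its promoter (chr11:106314489-106314790) had fold enrichments of 8.54 and 8.94 in the Wt replicates and 6.10 in K198R replicate 1. The region near Vpreb3, a gene related to the surrogate light chain, lay at position -5026 bp from its start, at the promoter of Chchd10 (5.57 and 7.61, with 4.32 in K198R replicate 2). Rag1 encodes a subunit of the recombinase of antigen receptor genes, and a region in its exon (chr2:101643921-101644199, 5.03 and 3.83) had no K198 peak. The intron of Erg, an ETS factor gene (chr16:95434375-95434718, 6.76 and 5.32), also had none. Runx1, another transcription factor gene of early haematopoiesis, had an intronic region of 7.77 and 5.05, with 4.57 in K198R replicate 2. Mef2c, a transcription factor gene active in B cell progenitors, had a region at its promoter (5.94 and 6.33, with 4.76 in K198R replicate 2) and one in an intron (6.14 and 3.39, no K198 peak). Bst1, Bcar3 and Plcg2 completed the list, each with a K198R peak in 1 list at 1 or more of its regions.

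Other lists were counted in the same way. Of 42 annotated genes of other lineages, 6 had a Wt-only region (Nkg7, Lck, Csf1r, Ccl9, Cd33 and Ifngr1), of 35 genes of DNA replication and the cell cycle 6 (Mcm3, Mcm6, Cdt1, Gins1, Ccnd3 and E2f1), of 93 genes of the respiratory chain 6, of 85 cytosolic ribosomal protein genes 6 and of 78 mitochondrial ones 4. At the Pax5 gene itself 2 Wt-only regions lay at annotated starts, at chr4:44645402-44645831 (5.34 and 2.86, with 4.23 in K198R replicate 2 and 9.90 in K198Q replicate 2) and at chr4:44704139-44704694 (5.26 and 3.22, with 5.66 in K198R replicate 2). The same locus held a region shared with K198R (chr4:44701487-44701859) and K198R-only regions at chr4:44672700-44672986 and chr4:44706077-44706337.

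RNA at genes with a Wt-only promoter region was the readout independent of the choice of regions. The 664 promoter regions belonged to 653 genes, 600 of them protein coding, and 103 of these genes had a further Pax5 region of another class at a promoter. A filter asked for 10 normalized counts or more in 2 or more of the 8 libraries, and 565 genes passed it in the Pax5-/- table and 573 in the Sirt7-/- table. A gene that passed through 1 group alone had to differ, so the counts below are not those of all 653. In bulk RNA, fewer expressing cells and less RNA per cell cannot be told apart.

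Pax5 Wt changed few of these genes against EV. In limma with Benjamini-Hochberg adjustment over 13345 genes, with a call defined as adjusted p below 0.05 and a log2 change of 1.5 or more in size, 7 of 565 genes (1.24%) were called and all were higher with Wt. Among all genes tested 1.52% were called, 1.26% as higher and 0.262% as lower. With an unadjusted p under 0.05 in limma, 92 genes (16.3%) differed, against 14.4% of all genes tested. The median log2 fold change was -0.027, against 0.005 over all genes tested. The share of called genes was thus near the background.

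Bst1, a surface ectoenzyme of early B cells also known as CD157, had 123 and 99.4 normalized counts with EV, 794 and 699 with Wt, 509 and 365 with K198Q and 947 and 1311 with K198R. All libraries with a Pax5 form lay above both EV libraries, and the log2 fold change of Wt against EV was 2.74 (SE 0.230, limma with Benjamini-Hochberg adjusted p = 0.00118). Its promoter region (chr5:43818693-43818979, 4.33 and 3.53) had a taller K198R replicate 1 peak of 7.73. Sgms1, a sphingomyelin synthase gene, had 61.2 and 71.0 with EV, 193 and 216 with Wt, 191 and 175 with K198Q and 533 and 709 with K198R. It was lowest with EV and highest with K198R, with a log2 fold change of 1.62 for Wt against EV (SE 0.209, limma with Benjamini-Hochberg adjusted p = 0.00765) and 1.58 for K198R against Wt (SE 0.209, adjusted p = 0.0117). Tpst1, a tyrosine sulfotransferase gene whose region had no K198 peak, had 15.6 and 16.3 with EV, 68.9 and 67.1 with Wt, 55.5 and 27.2 with K198Q and 287 and 206 with K198R. The groups EV, Wt and K198R did not overlap for it, with 2.02 for Wt against EV (SE 0.377, limma with Benjamini-Hochberg adjusted p = 0.0323) and 1.82 for K198R against Wt (SE 0.377, adjusted p = 0.0495).

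Zfp518a, a zinc finger gene, followed another order, with 15.7 and 22.5 normalized counts with EV, 191 and 325 with Wt, 22.0 and 24.9 with K198Q and 10.2 and 1.84 with K198R. The Wt libraries stood alone above all others. Wt against EV was 3.66 on the log2 scale (SE 0.639, limma with Benjamini-Hochberg adjusted p = 0.0259), K198R against Wt -5.47 (SE 0.639, adjusted p = 0.00857) and K198Q against Wt -3.36 (SE 0.639, adjusted p = 0.275). Its promoter region (chr19:40894368-40894735) had 8.19 and 5.68 with Wt and 9.35 in K198R replicate 2. Fam69c was listed at 0 in both EV libraries and had 19.8 and 25.0 with Wt, 0.579 and 0 with K198Q and 7.44 and 1.83 with K198R. It passed the filter through its Wt libraries alone and therefore had to differ, so its call supports nothing. Its region had no K198 peak. Gm266, also listed at 0 with EV, had 56.2 and 85.5 with Wt, 35.7 and 29.4 with K198Q and 87.1 and 120 with K198R (adjusted p = 0.000339 by the same test), and a region of all 3 forms lay at the same promoter. Pax5, the last of the 7, was itself transduced, so that its difference from EV was set by the vector and its call supports nothing either. Without Fam69c and Pax5, 5 of the 7 remain. Pax5 is also among the genes called between K198R and Wt and with either K198 form against EV, given below. Those calls of the transduced gene support nothing either. Leaving out 1 library at a time, the calls of Pax5, Bst1 and Gm266 held in all 4 fits and that of Sgms1 in 1, without EV replicate 2. Those of Tpst1, Zfp518a and Fam69c were lost in all 4. The count of 7 became 3 without Wt replicate 1 or EV replicate 1, 4 without Wt replicate 2 and 6 without EV replicate 2.

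No gene with a Wt-only promoter region was called between K198Q and Wt. By limma with the same adjustment and thresholds 0 of 565 were called, where 0.0225% of all genes tested (3 of 13345) were. At an unadjusted p under 0.05, 18 (3.19%) differed against 3.46% of all genes. The median log2 fold change was -0.004, against -0.008 over all genes tested.

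Between K198R and Wt, 11 of 565 genes (1.95%) were called by limma with the same thresholds, against 1.60% of all genes tested. Of these 4 were higher with K198R (0.285% of all genes) and 7 lower (1.31% of all genes), and the median log2 fold change was 0.038 against 0.007. Of the 132 tested genes whose region had no peak in any K198 list, 5 were called, 1 higher and 4 lower. With an unadjusted p under 0.05 in limma, 86 of the 565 (15.2%) and 30 of the 132 (22.7%) differed. Among all genes tested it was 12.7%, and no test was made on these shares. The 4 genes called as higher were Pax5, Sgms1, Tpst1 and Pgf, which encodes placental growth factor. Pax5 was itself transduced, in both groups, and its call supports nothing. Pgf had 16.2 and 12.8 normalized counts with EV, 68.3 and 34.0 with Wt, 46.0 and 22.8 with K198Q and 458 and 214 with K198R, and a region of all 3 forms lay at the same promoter. Its K198R libraries stood above all others, by 2.67 on the log2 scale against Wt (SE 0.524, limma with Benjamini-Hochberg adjusted p = 0.0418).

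For each of the 7 lower genes, both K198R libraries stood below all 6 other libraries, EV included. The genes had been picked as lower than with Wt, so separation from Wt was largely set by the choice. How many of all genes called as lower also lay below EV and K198Q was not counted. The pattern is thus no trait of genes with a Wt-only region. Gnb5, a G protein subunit gene whose region had no K198 peak, had 242 and 264 normalized counts with EV, 304 and 340 with Wt, 236 and 310 with K198Q and 55.6 and 46.9 with K198R. Mfsd4b4, a transporter gene, had 305 and 271, 245 and 271, 321 and 231, and 31.6 and 22.9 in the same order. For both the EV, Wt and K198Q groups lay close together, and K198R against Wt was -2.63 (SE 0.212) and -3.21 (SE 0.25), with a limma Benjamini-Hochberg adjusted p of 0.0029 for each. Pmaip1, which encodes the pro-apoptotic protein Noxa, had 298 and 245 with EV, 426 and 573 with Wt, 554 and 504 with K198Q and 109 and 58.5 with K198R. Its log2 fold change was -2.61 (SE 0.301, limma with Benjamini-Hochberg adjusted p = 0.00856).

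Actn1, an alpha-actinin gene with no K198 peak at its region (chr12:80260097-80260411, 5.61 and 3.72), had 1254 and 1450 normalized counts with EV, 3557 and 3847 with Wt, 2967 and 2683 with K198Q and 1068 and 625 with K198R. It was higher with Wt than with EV by 1.46 (SE 0.225, limma with Benjamini-Hochberg adjusted p = 0.0166, under the fold threshold) and lower with K198R than with Wt by 2.18 (log2 fold change -2.18, SE 0.225, adjusted p = 0.00596). Rasgrp3, an exchange factor of Ras that acts after the B cell receptor, had 1939 and 2077 with EV, 851 and 1166 with Wt, 1581 and 1623 with K198Q and 330 and 243 with K198R. It was highest with EV and lowest with K198R (K198R against Wt -1.81, SE 0.190, limma with Benjamini-Hochberg adjusted p = 0.00601), and its region (chr17:75465427-75465652, 4.81 and 6.74) held the Pax5 core and no K198 peak. Pard6g, a cell polarity gene without a K198 peak, had 66.6 and 117 with EV, 200 and 236 with Wt, 127 and 189 with K198Q and 47.0 and 31.8 with K198R (K198R against Wt -2.46, SE 0.357, limma with Benjamini-Hochberg adjusted p = 0.0149). Leaving out 1 library at a time, the calls of Gnb5 and Mfsd4b4 held in all 4 fits. Those of Actn1, Pmaip1 and Rasgrp3 were lost without Wt replicate 2, that of Pax5 without K198R replicate 1 and those of Pgf and Tpst1 in all 4 fits. Zfp518a lost its call without either Wt library, and Sgms1 and Pard6g without either Wt library or K198R replicate 2. The count of 11 became 3 without Wt replicate 2, 6 without Wt replicate 1 and 7 without K198R replicate 2.

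**Figure D4:**
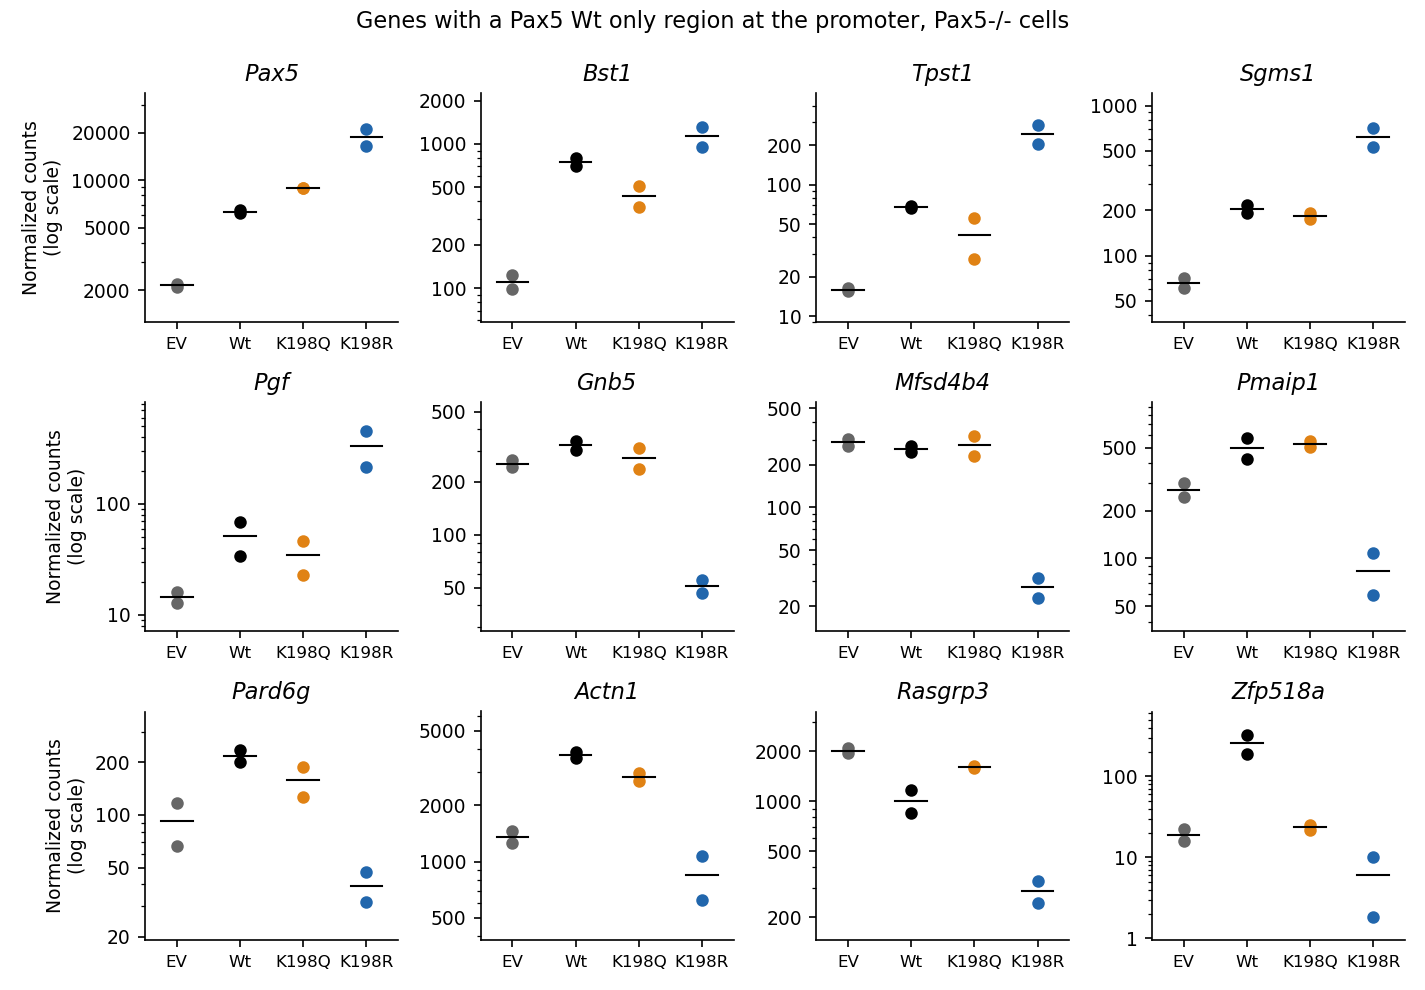
Normalized counts (log axes) of 12 genes with a Wt-only region at the promoter in the Pax5-/- libraries, by group (EV, Wt, K198Q, K198R). Points are the 2 libraries of a group and lines their mean; Pax5, Tpst1, Sgms1 and Pgf are highest with K198R, while Gnb5, Mfsd4b4, Pmaip1, Pard6g, Actn1, Rasgrp3 and Zfp518a are lowest with it.

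Set against EV, K198Q gave 4 of 565 calls (0.708%), all higher, and K198R 21 (3.72%), 10 higher and 11 lower. Among all genes tested 0.659% were called for K198Q, 0.629% as higher and 0.0300% as lower, and 4.59% for K198R, 1.45% as higher and 3.13% as lower. Neither share of the genes with a Wt-only region was far from its background, and these comparisons share their EV libraries with that of Wt. With an unadjusted p under 0.05 in limma, 7.96% differed for K198Q against 7.86% of all genes. For K198R it was 26.5% against 22.9%. Acacb, counted as higher with K198R, had 2.31 and 3.54 normalized counts with EV, 6.72 and 16.2 with Wt, 4.08 and 3.56 with K198Q and 30.8 and 29.9 with K198R. Without its K198R libraries it would not have passed the filter, so its call supports nothing. With K198Q the genes were Bst1, Gm266, H1fx and Pax5, the transduced gene, whose call supports nothing here or with K198R. H1fx, a linker histone gene, had 1.0 and 7.78 normalized counts with EV, 27.4 and 27.6 with Wt, 98.5 and 66.8 with K198Q and 72.2 and 43.1 with K198R, so that both EV libraries lay below all others. Its log2 fold change was 4.29 for K198Q (SE 0.671, limma with Benjamini-Hochberg adjusted p = 0.033) and 3.76 for K198R (SE 0.671, adjusted p = 0.0122). The call with K198R held in all 4 fits without 1 library and that with K198Q in 1, without EV replicate 2. The count of 4 for K198Q became 2 without K198Q replicate 1.

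The genes called as lower with K198R than with EV were Azin2, Fam49a, Gnb5, Gsn, Jag2, Mfsd4b4, Pmaip1, Prag1, Rasgrp3, Rasgrp4 and Tnfrsf1a. Some of them are described here, and their functions were not tested as a group. Tnfrsf1a, the TNF receptor gene, had 873 and 753 normalized counts with EV, 359 and 393 with Wt, 483 and 523 with K198Q and 203 and 139 with K198R (K198R against EV -2.27, SE 0.201, limma with Benjamini-Hochberg adjusted p = 0.000801). Its levels, from high to low, followed the order EV, K198Q, Wt and K198R without overlap. Jag2, a Notch ligand gene, had 6794 and 6549, 4238 and 3639, 5754 and 4935, and 2593 and 1506 in the groups EV, Wt, K198Q and K198R (K198R against EV -1.75, SE 0.227, adjusted p = 0.0034 by the same test). It kept the same order of groups. Rasgrp4 had 739 and 354 with EV, 228 and 231 with Wt, 351 and 301 with K198Q and 200 and 62.7 with K198R (-2.18, SE 0.525, adjusted p = 0.0396), and Rasgrp3, given above, was lower by a log2 fold change of -2.82 (SE 0.190, adjusted p = 0.000235). Jag2 was chosen after its values were seen. The calls of Tnfrsf1a and Rasgrp3 held in all 4 fits without 1 library, that of Jag2 was lost without K198R replicate 2, and that of Rasgrp4 held in 1 fit, without K198R replicate 1. Of the genes lower with K198R than with Wt, Gnb5, Mfsd4b4, Pmaip1 and Rasgrp3 were also called against EV, while Actn1, Pard6g and Zfp518a had adjusted p-values of 0.094, 0.088 and 0.134 in limma.

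Cisd3, Gsdme and St6galnac3, with promoter regions among the 10 tallest, and Fundc1 and Nus1 were not called between Wt and EV or between K198R and Wt. Cisd3 had 43.0 and 38.0 normalized counts with EV, 24.6 and 36.3 with Wt, 28.2 and 44.5 with K198Q and 22.1 and 22.2 with K198R, and Gsdme lay between 5.48 and 22.0 in all libraries. Both were near the filter on low values and had adjusted p-values of at least 0.753 in the limma fits of Wt against EV and K198R against Wt. Fundc1 lay between 960 and 1300 and Nus1 between 2717 and 3143 in all 8 libraries, with log2 fold changes of 0.13 and 0.12 for K198R against Wt (SE 0.137 and 0.081, limma with Benjamini-Hochberg adjusted p = 0.849 and 0.694). St6galnac3 was listed at 0 with EV and had 18 and 51.9 with Wt, 0.338 and 0 with K198Q and 0.340 and 15.6 with K198R. Without its Wt libraries it would not have passed the filter, and it is given as values. Sox5, whose region lies outside its promoter, had 37.5 and 43.8 with EV, 9.93 and 6.09 with Wt, 4.53 and 15.1 with K198Q and 3.03 and 5.47 with K198R. Both EV libraries lay above all others, but Sox5 passed the filter through them and is likewise given as values.

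Of the 9 B lineage genes with a Wt-only region, 4 were called as higher with Wt than with EV, against 13 of the 48 tested genes of the whole list, and none of either as lower. The median log2 fold changes were 0.931 and 0.678, against 0.005 over all genes tested. The list holds known Pax5 targets and its direction is not independent evidence. Vpreb3 had 733 and 813 normalized counts with EV and 4163 and 5200 with Wt, without overlap, a log2 fold change of 2.59 (SE 0.124, limma with Benjamini-Hochberg adjusted p = 0.000146). Rag1 had 1443 and 2289 with EV and 8938 and 8704 with Wt (2.28, SE 0.199, adjusted p = 0.00134 by the same test), and Bcar3, an adaptor protein gene, had 18.3 and 20.7 with EV and 104 and 72.5 with Wt (2.10, SE 0.365, adjusted p = 0.0255). Bst1 was the fourth. None of these was lower with K198R: Vpreb3 had 7165 and 6959, Rag1 18291 and 18398 and Bcar3 730 and 414, and only Bcar3 passed both thresholds for K198R against Wt (2.65, SE 0.365, limma with Benjamini-Hochberg adjusted p = 0.0129). Leaving out 1 library at a time, the calls of Vpreb3 and Rag1 between Wt and EV held in all 4 fits and that of Bcar3 in 0. Between K198R and Wt Bcar3 lost its call without either Wt library. Cd79b had 4094 and 4267 with EV, 5365 and 6197 with Wt, 4913 and 5201 with K198Q and 7224 and 7693 with K198R, and Erg 1636 and 2058, 3506 and 3490, 2859 and 3005, and 4518 and 4143. Both were higher with Wt than with EV at adjusted p-values of 0.049 and 0.00765 in limma, but by 0.46 and 0.93 on the log2 scale, under the fold threshold. For Wt against EV 0 of the 6 genes of other lineages with a Wt-only region were called, against 1 higher and 2 lower of the 36 tested genes of that list. Their median log2 fold change was -0.644, against -0.631 for the list and 0.005 over all genes tested. This list also holds genes that the study names as repressed by Pax5 in the same libraries, Nkg7 among them. Its direction is therefore not independent evidence either. Nkg7, a gene of NK cell granules, had 468 and 569 normalized counts with EV, 192 and 219 with Wt, 260 and 303 with K198Q and 109 and 77.7 with K198R, and the groups did not overlap. It was lower with Wt than with EV (log2 fold change -1.32, SE 0.223, limma with Benjamini-Hochberg adjusted p = 0.0225) and lower with K198R than with Wt (-1.15, SE 0.223, adjusted p = 0.0404), both under the fold threshold. Ifngr1, an interferon-gamma receptor gene, had 6729 and 6655 with EV and 4748 and 4360 with Wt (-0.56, SE 0.097, adjusted p = 0.0259 by the same test), also under it. The other 4 did not pass at an adjusted p of 0.05 between Wt and EV and differed in sign. Ccl9, a chemokine gene, had 877 and 737 with EV, 2136 and 1496 with Wt, 2347 and 1518 with K198Q and 1519 and 705 with K198R (Wt against EV 1.15, SE 0.366, adjusted p = 0.171 in limma with Benjamini-Hochberg adjustment), both Wt libraries lying above both EV libraries. Lck, a kinase gene of T cells, had 0.04 (SE 0.176), Cd33 -0.73 (SE 0.340) and Csf1r -2.10 (SE 0.636) for Wt against EV. For K198R against EV, Nkg7 and Csf1r were called as lower, where 3.13% of all genes tested were, and the whole list was not counted. The log2 fold changes of Nkg7 and Csf1r were -2.48 (SE 0.223, limma with Benjamini-Hochberg adjusted p = 0.00087) and -2.91 (SE 0.636, adjusted p = 0.0274). Csf1r had 59.2 and 22.1 normalized counts with EV and 6.85 and 2.14 with K198R. The sums of NK and myeloid markers given above were also lower with Wt and with K198R than with EV, and their part was not tested. Genes of the cell cycle, ribosomal and respiratory lists with a region were not called in any of the comparisons with Wt in Pax5-/- cells.

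In Sirt7-/- cells, where endogenous Pax5 was present, Pax5 RNA was 25995 and 37113 normalized counts with EV, 43024 and 43260 with Wt and 38690 and 45426 with K198R. Between Wt and EV 0 of 573 genes with a Wt-only promoter region were called at an adjusted p under 0.05 in limma with Benjamini-Hochberg adjustment, against 0.0366% of 13651 genes tested. At an unadjusted p under 0.05, 61 (10.6%) differed, against 9.91% of all genes, and the median log2 fold changes were -0.001 and -0.006. The replicates differed in markers of other cells: in each of the 4 groups of this table replicate 1 had the higher sums of T and NK cell markers, for example 1036 against 381 (T) and 146 against 50.8 (NK) with Wt and 2808 against 1616 and 152 against 41.3 with EV. OP9 markers summed to 3212 and 4935 with EV, 5733 and 11517 with Wt and 4291 and 8813 with K198R. Replicate 2 was thus higher in each Sirt7-/- group, but not in wild-type cells with EV (4892 and 3570). Both Wt libraries lay above both Sirt7-/- EV libraries for these OP9 sums. The part of these cells in the calls was not tested. Between K198R and Wt 3 of 573 (0.524%) were called, all higher with K198R, against 0.425% of all genes tested (0.125% higher and 0.300% lower). With an unadjusted p under 0.05 in limma, 44 (7.68%) differed, against 8.78% of all genes. Both counts changed with the replicate number as a term in the fit, as did those of all genes tested. Between Wt and EV 14 of 573 (2.44%) were then called, against 268 of all 13651 genes. Between K198R and Wt it was 12 (2.09%), against 314 of all 13651 genes (2.30%). No test was made on these shares.

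Ext1, a heparan sulfate polymerase gene, had 227 and 195 normalized counts with Wt and 552 and 690 with K198R in Sirt7-/- cells, and 218 and 268 with EV (log2 fold change of K198R against Wt 1.55, SE 0.198, limma with Benjamini-Hochberg adjusted p = 0.0271). Nt5c2, a nucleotidase gene, had 2356 and 1674 with Wt, 5082 and 4650 with K198R and 2318 and 2515 with EV (1.29, SE 0.157, adjusted p = 0.0251 by the same test). Itpr3, a gene of the IP3 receptor with a further region shared with K198R at its promoter, had 2573 and 2304, 3951 and 4146, and 2461 and 2713 (0.73, SE 0.106, adjusted p = 0.0401). In each the K198R libraries stood above the others and Wt lay close to EV. Leaving out 1 library at a time, Nt5c2 kept its call only without Wt replicate 1, and Ext1 and Itpr3 lost theirs in all 4 fits. The Wt-only regions were mapped in Pax5-/- cells, and whether they are bound in Sirt7-/- cells was not measured.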

How the data were processed

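ChIP-seq peak lists (6), and RNA-seq tables (2) with 8 libraries each were used; the table of sorted pro-B and pre-B cells was not used here. Per the study's methods and processing notes the authors aligned ChIP reads with Bowtie2 to mm10, removed duplicates and low-quality alignments, and called peaks per replicate over its own input with MACS2. The deposited lists give fold enrichment over input, a ratio, and −log10 q. For RNA the authors used Salmon and tximeta and deposited median-of-ratios normalized counts from DESeq2, a scaled signal from which whole reads were not recovered. The libraries summed to 28865461 to 30520853 (Pax5-/-) and 27814214 to 30160880 (Sirt7-/-). Depth of the ChIP libraries was not used, so heights across lists were set side by side as deposited.

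Regions were built as stated in the report and annotated with GENCODE vM21 and the GRCm38.p6 genome, the assembly of mm10. Wilson 95% intervals cover counting error only. RNA values were tested as log2(value + 1) with limma 3.58.1 in R 4.3.3 (4 groups in 1 fit, trend of the variance, Benjamini-Hochberg adjustment), so fold changes of low genes are understated. For the Pax5-/- table a call also needed a log2 change of 1.5 or more in size, the study's own threshold. Scripts were tested on simulated data. With 2 libraries per group an exact test of 1 gene cannot pass a p of 0.05, and p-values rest on the spread over all genes. Named regions were the 10 with the highest lower Wt value, those at Nus1 and Fundc1 and those at the edge of the rule. Named genes were up to 5 called genes per direction and comparison, further called genes, and list genes with a region. Members, lists and rules were chosen with earlier results of these data known. Alternatives covered overlap, q-value, windows, pseudocount, filter, scaling, gene assignment, the replicate block and leaving out each replicate.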

Additional observations from a re-analysis of the deposited data

Results flagged for a closer look

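Several genes with a Wt-only region had log2 fold changes of opposite sign in Pax5-/- and Sirt7-/- cells, with no overlap between the groups compared in either, but in Sirt7-/- cells most did not pass the test. They were sought only among the named genes with a call in either culture. How many of all genes tested show such a pattern was not counted, so it is not a trait of genes with a Wt-only region. The difference between the cultures was not tested, and the tables were normalized separately. Strain, Sirt7 genotype and endogenous Pax5 differ between the cultures, as does the tissue of origin according to the methods. For K198R against Wt the log2 fold changes in Pax5-/- and Sirt7-/- cells were -2.18 and 0.72 for Actn1, -1.12 and 1.55 for Ext1, -2.63 and 0.57 for Gnb5, -1.81 and 1.03 for Rasgrp3, 0.60 and -1.10 for Vpreb3 and -5.47 and 0.25 for Zfp518a. By limma with Benjamini-Hochberg adjustment the adjusted p in Sirt7-/- cells was 0.0271 for Ext1 and 0.0346 for Vpreb3 and between 0.353 and 0.849 for the other 4 genes. For Zfp518a the K198R libraries (1080 and 1027 normalized counts) and the Wt libraries (1026 and 766) almost touched. In Pax5-/- cells Ext1 was not called (adjusted p = 0.082) and Vpreb3 stayed under the fold threshold. For Wt against EV the values were 2.74 and -0.41 for Bst1, 2.59 and -0.25 for Vpreb3 and 3.66 and -0.55 for Zfp518a, with adjusted p between 0.326 and 0.697 in Sirt7-/- cells. Counts of these genes with EV differed between the cultures: Zfp518a had 15.7 and 22.5 normalized counts in Pax5-/- and 1451 and 1165 in Sirt7-/- cells, and Vpreb3 733 and 813 against 11064 and 11029.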

How the results depend on the processing

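The number of Wt-only regions was 1564 when replicate peaks had to share 50% of the shorter peak and 1545 at a −log10 q of at least 3, but 454 when every K198Q and K198R peak counted, and between 852 (without K198R replicate 1) and 4322 (without Wt replicate 1) when 1 list was left out and the other list of that form was used whole. The promoter share was 34.1% for the 454 regions, 36.3% and 47.1% with windows of 500 bp and 2 kb, and 36.7% to 45.3% without 1 list. The share with the Pax5 core was 9.71% within 50 bp, 29.1% with the weight matrix in its place, and 11.6% to 14.5% without 1 list. Called genes for Wt against EV in Pax5-/- cells numbered 21 of 983 (2.14%) with starts within 50 kb, 2 of 132 (1.52%) for the 454 regions and 3 to 6 without 1 library, against 1.52% of all genes for the first and second and 0.502% to 0.847% for the last. For K198R against Wt they numbered 23 (2.34%), 5 (3.79%) and 3 to 12, against 1.60% and 0.15% to 2.68% of all genes. For K198Q against EV they numbered 8 (0.814%), 1 (0.758%) and 2 to 3, against 0.659% and 0.217% to 0.397%, and for K198R against EV 55 (5.60%), 6 (4.55%) and 15 to 29, against 4.59% and 2.35% to 5.57%. The alternatives for these last comparisons with EV were chosen after seeing the data. In Sirt7-/- cells they numbered 1 of 986 (0.101%) within 50 kb for Wt against EV, against 0.0366% of all genes. For K198R against Wt they numbered 8 of 986 (0.811%) within 50 kb and 0 for the 454 regions, against 0.425%, 0 with no filter on low values, against 0.0855%, and 0 to 1 without 1 library, against 0.0147% to 0.0952%. In a fit that leaves 1 library in a group, that library is assumed to vary like the others. K198Q against Wt gave 0 throughout. For the 21 calls of genes with a Wt-only promoter region (7, 11 and 3), each refitted with another pseudocount, filter, scaling, block or without 1 library, the call held in 115 fits and was lost in 53, and 0 changed direction. For 36 further calls, against EV with a K198 form or of list genes with a region, it held in 253 and was lost in 35. Where a setting changes neither the samples nor the genes tested, the cause was not tested.

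Replicate numbers are shared by all groups, and replicates were made on different days, but which libraries share a day is not stated. Deviations of same-numbered libraries correlated at 0.264 to 0.383 (Pax5-/-) and 0.156 to 0.428 (Sirt7-/-). With the replicate block, called genes numbered 10 (1.77%, Wt against EV) and 12 (2.12%, K198R against Wt), against 2.44% of all genes for each, and 0 (K198Q against Wt) in Pax5-/- cells. In Sirt7-/- cells, where 0 and 3 were called without the block, they numbered 14 of 573 (2.44%, Wt against EV), against 268 of all 13651 genes, and 12 (2.09%, K198R against Wt), against 2.30%. The peak lists hold no value where no peak was called, so a difference in binding at low peaks was not measured here.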
